A study of Mus musculus with 6 samples.

Results

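The miR-17-92 and miR-106b-25 clusters are paralogous groups of microRNAs (miRNAs, short RNAs that direct the silencing of messenger RNAs), each processed from a single primary transcript. Their 9 guide products and the related miR-92b-3p were taken by name from the deposited table, and all 10 of 10 names were found among its 1182 features. They were compared between the brain cortex of adult male Fmr1 knockout mice (KO, 3 libraries) and of wild-type mice (WT, 3 libraries). The product of Fmr1, FMRP, binds messenger RNAs in neurons and controls their translation. The animals were age-matched and received no treatment, but their age, strain, the knockout allele and the number of animals behind each library are missing from the labels used here. The labels call replicates biological without tying a library to an animal, so p-values measure the spread between these libraries, which may be technical.

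The miR-17-92 transcript is best known as a driver of proliferation and survival, acting in progenitor cells, blood lineages and tumours through targets that include Bim and cell-cycle inhibitors. In the developing cortex the cluster promotes the expansion of neural progenitors, and miR-106b-25, which lies within the replication gene Mcm7, has related roles in neural stem cells. A miRNA finds its targets mainly through its seed, the bases near its 5′ end, so products of different clusters with the same seed can share targets.

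The mature sequences, from RefSeq (GRCm38.p6), are shown because the members fall into 4 families by seed, which run across the clusters. Capitals mark the seed, bases 2 to 8 counted from the 5′ end, and the species prefix mmu is left out elsewhere. The miR-17 family holds
mmu-miR-17-5p: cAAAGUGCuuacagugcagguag
mmu-miR-20a-5p: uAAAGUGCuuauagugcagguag
mmu-miR-106b-5p: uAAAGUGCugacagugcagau
mmu-miR-93-5p: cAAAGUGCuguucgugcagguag
The miR-92 family holds
mmu-miR-92a-3p: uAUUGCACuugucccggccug
mmu-miR-25-3p: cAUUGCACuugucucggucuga
mmu-miR-92b-3p: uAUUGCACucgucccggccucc
The miR-19 family holds
mmu-miR-19a-3p: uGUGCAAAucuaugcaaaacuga
mmu-miR-19b-3p: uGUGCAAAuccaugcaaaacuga
The remaining member has a seed of its own
mmu-miR-18a-5p: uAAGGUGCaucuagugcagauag
Outside the seed some of these differ by few bases. From miR-19a-3p to miR-19b-3p there is 1 difference (U11C), from miR-17-5p to miR-20a-5p there are 2 (C1U and C12U), and from miR-92a-3p to miR-92b-3p there are 2 over the 21 bases compared (U10C and G21C). The mismatches that the authors' alignment allowed were stated in no source used here, so reads could have been split or shared between such pairs.

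On GRCm38 the 6 hairpins of miR-17-92 lie within 836 bases of chromosome 14 (chr14:115043671-115044506, plus strand), in an exon of the long noncoding RNA gene Mir17hg. The 3 hairpins of miR-106b-25 lie within 498 bases of chromosome 5 (chr5:138165321-138165818, minus strand), in introns of both protein-coding transcripts of Mcm7 that span them. The Mir93 and Mir25 hairpins also fall in an exon of 1 Mcm7 transcript annotated with a retained intron. Mir92b lies on chromosome 3 (chr3:89227116-89227198, minus strand), outside annotated host genes. A further hairpin for miR-19b-3p and another for miR-92a-3p lie on chromosome X, in the third paralogous cluster, miR-106a-363, and mature reads do not tell these origins apart. No annotated hairpin lies opposite any of the members (0 found).

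The libraries held between 11182888 and 14385332 miRNA reads in KO and between 13225790 and 15733876 in WT. The members took 0.0626%, 0.0455% and 0.0464% of all reads in the KO libraries and 0.0544%, 0.0519% and 0.0508% in the WT libraries. The neuronal miRNAs miR-9-5p, miR-124-3p and miR-128-3p, summed, stood at 280959, 423211 and 321442 CPM in KO and at 309475, 317757 and 340072 CPM in WT. This sum was made up almost wholly of miR-9-5p and miR-128-3p, and its peak in KO replicate 2 came from miR-9-5p (316153 CPM). By itself miR-124-3p had 1354, 1297 and 2118 CPM in KO, with KO replicate 3 the highest library. In WT it had 1796, 1830 and 1611 CPM. KO libraries differed more among themselves than WT libraries did, with a median SD of log2 CPM over the 541 miRNAs tested of 0.375 in KO and 0.135 in WT. In whole cortex, fewer cells of a type and less RNA per cell cannot be told apart.

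KO replicate 3, on which several of the values below turn, was the highest or lowest library in sums of miRNAs of other cell types, though not always by much. Erythroid miRNAs (4 of 4 found, none at 0) summed to 99.4, 80.3 and 120.6 CPM in the KO libraries, against 75.4, 83.4 and 76.6 CPM in the WT libraries. Leukocyte and microglial miRNAs (5 of 5 found, none at 0) summed to 107.7, 87.5 and 132.7 CPM in the KO libraries, against 102.6, 92.2 and 88.9 CPM in the WT libraries. Choroid plexus miRNAs (3 of 3 found, none at 0) stood at 776.2, 676.5 and 1636 CPM in the KO libraries, against 675.2, 690.5 and 754.6 CPM in the WT libraries. Endothelial miRNAs (2 of 2 found, none at 0) were at 7676, 7656 and 8063 CPM in the KO libraries, against 7146, 7050 and 7626 CPM in the WT libraries. KO replicate 3 was the highest library in each of these 4 sums, although in the endothelial sum every KO library lay above every WT library. The endothelial sum was made up almost wholly of miR-126a-3p, and the groups overlapped for miR-126a-5p. As a share of all reads, miR-126a-3p was lower in KO replicate 2 (90408 of 14385332) than in WT replicate 1 (108352 of 14825686). Its separation thus depended on the scaling. Groups separated with KO above WT in 5.18% of the 541 miRNAs tested. The single miRNAs of the blood-cell lists did not all follow their sums. In KO replicate 3 the erythroid miR-451a (80.1 CPM) and the leukocyte miR-150-5p (118.2 CPM) were at their highest, whereas the erythroid miR-486a-5p (38.4 CPM) and the leukocyte miR-142a-5p (7.996 CPM) were at their lowest of the 6 libraries. Oligodendrocyte miRNAs (3 of 3 found, none at 0), a sum made up mostly of miR-219a-2-3p, were lowest in KO replicate 3, with 869.7, 777.0 and 624.7 CPM in the KO libraries, against 873.0, 847.8 and 966.4 CPM in the WT libraries. Their member miR-338-3p was instead highest in KO replicate 3, at 32.7 CPM. Epithelial and olfactory miRNAs of the miR-200 family (5 of 5 found, miR-141-3p at 0 in KO replicate 1) summed to 15.7, 904.3 and 970.1 CPM in the KO libraries, against 154.2, 83.9 and 290.0 CPM in the WT libraries. Here KO replicates 2 and 3 were both high and KO replicate 1 was the lowest library. The part of these cell types in the members' values was not tested.

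Across the members, levels covered more than 3 orders of magnitude. Values are read counts scaled to a common library size (CPM) by TMM, which allows for differences in composition. No length term was applied, since 1 read stands for 1 mature miRNA of 21 to 23 bases. In WT cortex miR-92b-3p was highest at 246.9 ± 15.8 CPM (SD, n = 3), followed by miR-25-3p at 111.6 ± 2.54, miR-92a-3p at 84.8 ± 5.12 and miR-93-5p at 45.9 ± 2.55 CPM. WT ranges of these 4 did not overlap each other. Next came miR-20a-5p at 11.4 ± 2.09 CPM. The following 3, miR-17-5p at 6.33 ± 0.946, miR-19b-3p at 6.21 ± 1.42 and miR-106b-5p at 6.001 ± 1.45 CPM, did not differ beyond their spread. Adaptor ligation favours some miRNAs over others, so this order holds for reads.

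**Figure D1:**
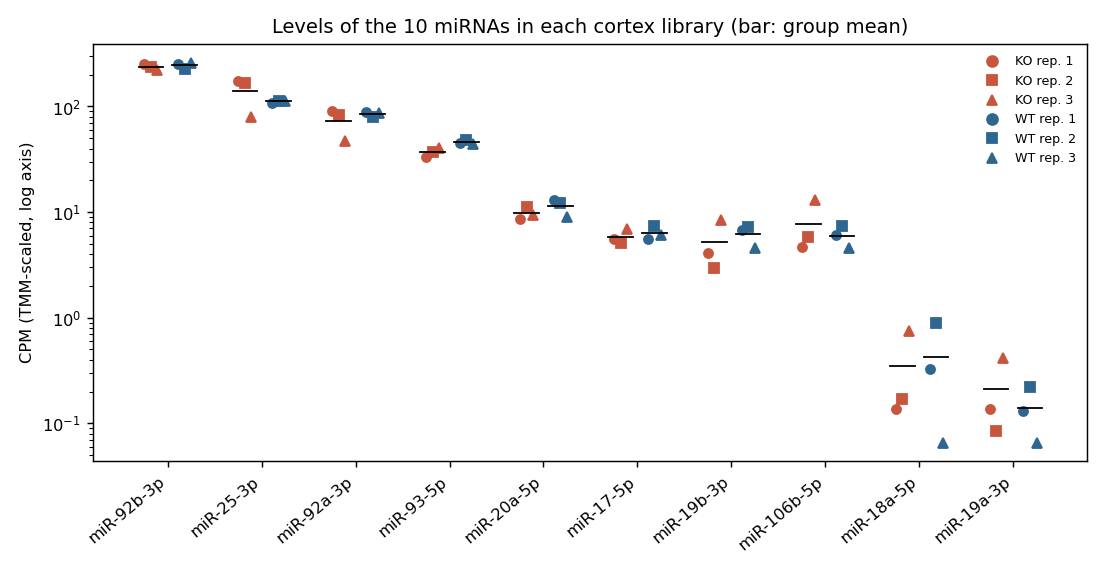
CPM of each of the 10 miRNAs on a log axis, with KO libraries left and WT libraries right of each name, 1 point per library and a bar at the group mean. The members descend from miR-92b-3p to miR-19a-3p, KO replicate 3 is the lowest library for miR-25-3p and miR-92a-3p and the highest for miR-106b-5p and miR-19b-3p, and the 2 rarest members rest on at most 12 reads per library.

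Of the 10 members, 8 passed the filter on low counts, and none of these passed the test of KO against WT (0 of 8; edgeR's quasi-likelihood test with Benjamini-Hochberg adjustment over all 541 miRNAs, threshold 0.05). The test called 0% of all miRNAs. At an unadjusted p under 0.05 it gave 0 of the 8 and 35 of 541 (6.47%). DESeq2 and limma-voom also called 0. Fold changes were below 0 for 6 members and above 0 for 2, with a median log2 fold change of -0.16, against 257 of 541 (47.5%) below 0 and a median of 0.03 over all tested. In scaled CPM, KO and WT libraries did not overlap for 1 of the 8, miR-93-5p, against 15.7% of all tested miRNAs. Separated groups with KO below WT were found for 10.5% of all tested miRNAs, and with KO above WT, as in 0 members, for 5.18%, so 1 of 8 is near the background. The half-widths of the members' 95% intervals had a median of 0.56 on the log2 scale. They give the precision of single miRNAs before the adjustment over all 541, so a difference of that size could still miss the threshold.

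**Figure D2:**
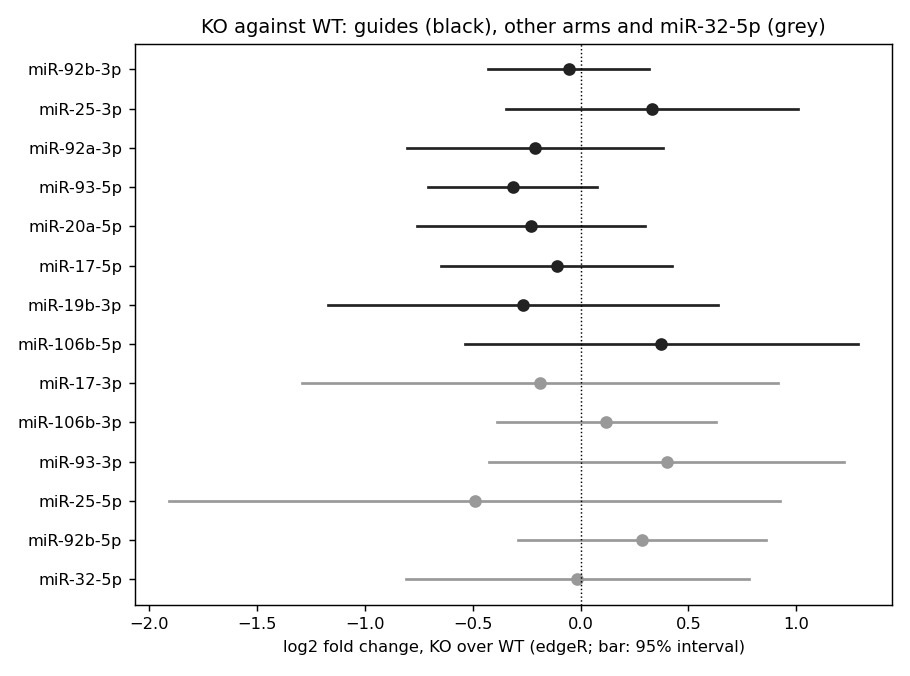
Log2 fold change of KO over WT with its 95% interval from edgeR, for the 8 tested members (black) and for the tested opposite arms and miR-32-5p (grey). Every interval includes 0, and the narrowest among the members is that of miR-92b-3p (-0.43 to 0.32).

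Within miR-106b-25 the 3 guides went different ways. In miR-25-3p the KO libraries had 173.9, 168.1 and 79.4 CPM and the WT libraries 108.7, 113.5 and 112.6 CPM. KO replicates 1 and 2 lay above every WT library and KO replicate 3 below all of them. The counting error does not bridge these gaps, since the 95% Poisson intervals ran from 167.2 to 180.8 CPM in KO replicate 1, from 74.4 to 84.6 CPM in KO replicate 3 and from 107.9 to 119.3 CPM in WT replicate 2. These intervals cover counting error only, as PCR reads are not independent molecules. The log2 fold change of miR-25-3p was 0.33 (SE 0.30, 95% interval -0.34 to 1.01, adjusted p = 0.791, edgeR). Without KO replicate 3 it was 0.63 and passed the threshold (adjusted p = 0.0211, edgeR), as 1 of 18 miRNAs called in that setting out of 560 tested. Over all 12 alternative settings it stayed above 0, from 0.12 to 0.63, with adjusted p-values from 0.0211 to 0.999.

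Its neighbour miR-93-5p, of the miR-17 seed family, had 33.2, 36.8 and 40.7 CPM in the KO libraries, against 45.3, 48.7 and 43.7 CPM in the WT libraries. In scaled CPM every KO library lay below every WT library, and KO replicate 3 was the nearest to WT. The 95% Poisson intervals of KO replicate 3 (37.2 to 44.5 CPM) and WT replicate 3 (40.4 to 47.1 CPM) overlapped. As a share of all reads, KO replicate 3 (494 of 11182888) lay above WT replicate 3 (664 of 15733876). The separation thus depended on the scaling. The means were 36.9 ± 3.78 CPM for KO, against 45.9 ± 2.55 CPM for WT (SD over 3 libraries each). The log2 fold change was -0.31 (SE 0.17, 95% interval -0.71 to 0.08), with an adjusted p of 0.749 (edgeR). In the 12 alternative settings the value ranged from -0.37 to -0.22, and its adjusted p was never below 0.184.

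The first hairpin of the transcript gave miR-106b-5p at 4.64, 5.80 and 12.9 CPM in the KO libraries, against 6.03, 7.44 and 4.54 CPM in the WT libraries. KO replicate 3 stood alone above the other 5 libraries, at 157 reads (95% Poisson interval 133 to 184), while KO replicates 1 and 2 lay within the WT range. The log2 fold change was 0.37 (SE 0.40, adjusted p = 0.82, edgeR), and without KO replicate 3 it was -0.18. Within the cluster miR-25-3p took 82.1%, 79.8% and 59.7% of the reads of the 3 guides in KO and 67.9%, 66.9% and 70.0% in WT. Reads of miR-25-3p per read of miR-93-5p, which do not depend on the scaling, were 5.24, 4.56 and 1.95 in KO and 2.40, 2.33 and 2.58 in WT. The proportions of miR-25-3p and miR-93-5p were therefore similar in all WT libraries. Among the KO libraries, replicates 1 and 2 were like each other and replicate 3 was unlike them. The share of the rarer miR-106b-5p was 2.19%, 2.75% and 9.73% in KO and 3.77%, 4.38% and 2.82% in WT.

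The most abundant product of miR-17-92 was miR-92a-3p, which is known to restrain vessel growth in endothelium. Its levels were 90.4, 82.2 and 47.4 CPM in the KO libraries, against 89.1, 79.1 and 86.1 CPM in the WT libraries. KO replicates 1 and 2 lay in or near the WT range and KO replicate 3 well below it. The log2 fold change was -0.21 (SE 0.26, adjusted p = 0.86, edgeR), and 0.04 without KO replicate 3.

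Both miR-17 family guides of this cluster were low, and neither passed the test. Levels of miR-20a-5p were 8.60, 11.3 and 9.40 CPM in the KO libraries, against 13.1, 12.1 and 9.08 CPM in the WT libraries, which gave a log2 fold change of -0.23 (SE 0.23, adjusted p = 0.814, edgeR). For miR-17-5p, which gives the family its name, they were 5.53, 5.13 and 6.92 CPM in the KO libraries, against 5.51, 7.36 and 6.12 CPM in the WT libraries, which gave a log2 fold change of -0.11 (SE 0.23, adjusted p = 0.882, edgeR). The groups overlapped for both. Without WT replicate 2 the fold change of miR-17-5p was 0.04 on the log2 scale.

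The miR-19 guides are regarded as the main oncogenic products of the cluster. Here miR-19b-3p had 4.10, 2.94 and 8.49 CPM in the KO libraries, against 6.75, 7.29 and 4.60 CPM in the WT libraries. KO replicates 1 and 2 were the lowest of the 6 libraries and KO replicate 3 the highest. The log2 fold change was -0.26 (SE 0.40, adjusted p = 0.882, edgeR), and over left-out libraries it ranged from -0.80 without KO replicate 3 (adjusted p = 0.131, edgeR) to -0.01 without KO replicate 2 (adjusted p = 0.993, edgeR). Its near-twin miR-19a-3p, which differs at a single base, had 2, 1 and 5 reads in KO and 2, 3 and 1 reads in WT. Likewise miR-18a-5p had 2, 2 and 9 reads in KO and 5, 12 and 1 reads in WT. Neither reached the count filter, and no difference was detectable at this depth. Among the guides with a hairpin on chromosome 14 alone, reads per library thus ranged from 1 for miR-19a-3p to 200 for miR-20a-5p.

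**Figure D3:**
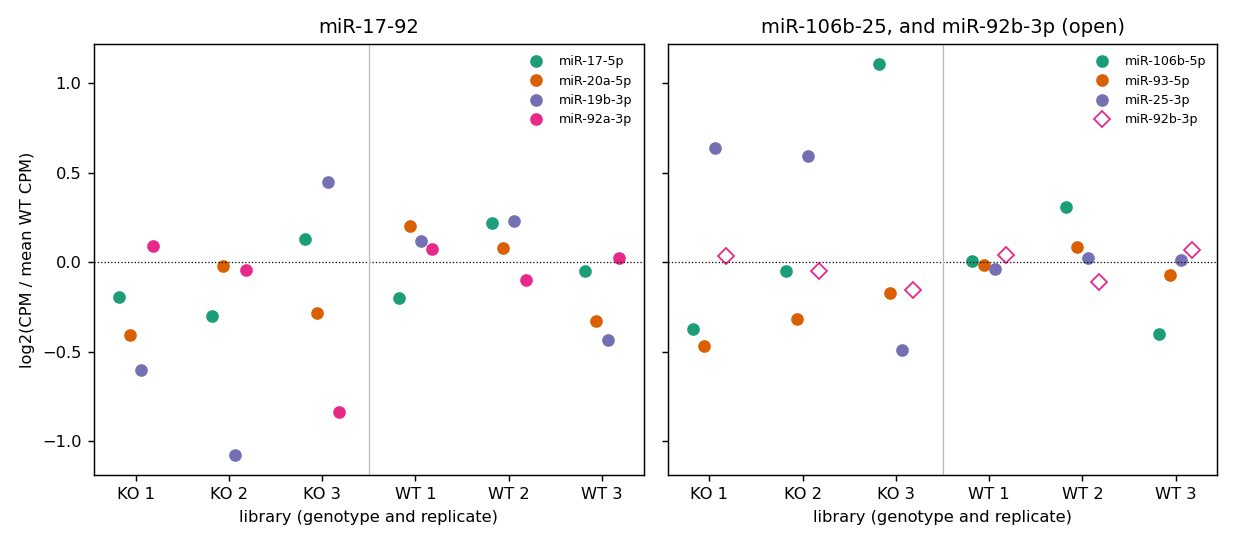
Log2 of each library's CPM over the mean WT CPM, by library (KO left, WT right), for the tested guides of miR-17-92 (left panel) and for those of miR-106b-25 with miR-92b-3p as open symbols (right panel). In KO replicate 3, miR-106b-5p stood at 1.11 and miR-92a-3p at -0.84, whereas miR-92b-3p stayed between -0.16 and 0.03 in all KO libraries.

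Outside the clusters, miR-92b-3p, which is known from neural progenitors, was the steadiest member. It had 252.8, 238.2 and 221.7 CPM in the KO libraries, against 253.5, 228.9 and 258.3 CPM in the WT libraries. The groups overlapped, and the log2 fold change was -0.06 (SE 0.16; interval at 95% -0.43 to 0.32, adjusted p = 0.904, edgeR). Its sign changed with the scaling, to 0.03 with library sizes computed without the 5 most abundant miRNAs.

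Sums by cluster and by seed are given without a test. The 6 guides of miR-17-92 summed to 108.9, 101.8 and 73.4 CPM in the KO libraries, against 115.0, 107.0 and 106.02 CPM in the WT libraries. Those of miR-106b-25 summed to 211.7, 210.8 and 133.0 CPM in the KO libraries, against 160.1, 169.6 and 160.8 CPM in the WT libraries. KO replicate 3 was the lowest library for both clusters, and the groups overlapped in both. Each sum came mostly from 1 guide, miR-25-3p in miR-106b-25 and miR-92a-3p in miR-17-92. The share of miR-92a-3p was 83.0%, 80.7% and 64.6% in KO and 77.5%, 74.0% and 81.2% in WT. Not every guide was low in KO replicate 3, where miR-106b-5p and miR-19b-3p were at their highest of the 6 libraries. The log2 ratio of the KO mean to the WT mean was -0.21 for miR-17-92 and 0.18 for miR-106b-25, and over left-out libraries they ranged from -0.32 to -0.05 and from 0.07 to 0.37, with the highest value of both without KO replicate 3 and the lowest without KO replicate 1. Without miR-19b-3p and miR-92a-3p, which also have hairpins on chromosome X, the ratio for miR-17-92 was -0.18. By seed, the miR-92 family of miR-92a-3p, miR-25-3p and miR-92b-3p held 517.1, 488.5 and 348.5 CPM in the KO libraries, against 451.4, 421.6 and 457.0 CPM in the WT libraries. The miR-17 family held 51.9, 59.0 and 70.0 CPM in the KO libraries, against 69.9, 75.5 and 63.4 CPM in the WT libraries. KO replicate 3 was thus lowest of all for the miR-92 seed, and highest of the KO libraries for the miR-17 seed. The log2 ratios of means were 0.03 for the miR-92 seed and -0.21 for the miR-17 seed, and over left-out libraries they ranged from -0.08 to 0.18 and from -0.33 to -0.11, at 0.18 and -0.33 without KO replicate 3 and at -0.08 and -0.11 without KO replicate 1. Of the miR-92 family's reads miR-92b-3p supplied 53.8% ± 8.54 in the KO libraries and 55.7% ± 1.197 in the WT libraries (SD, n = 3 each). Of the miR-17 family's reads miR-93-5p supplied 61.5% ± 2.95 in the KO libraries and 66.0% ± 2.48 in the WT libraries.

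**Figure D4:**
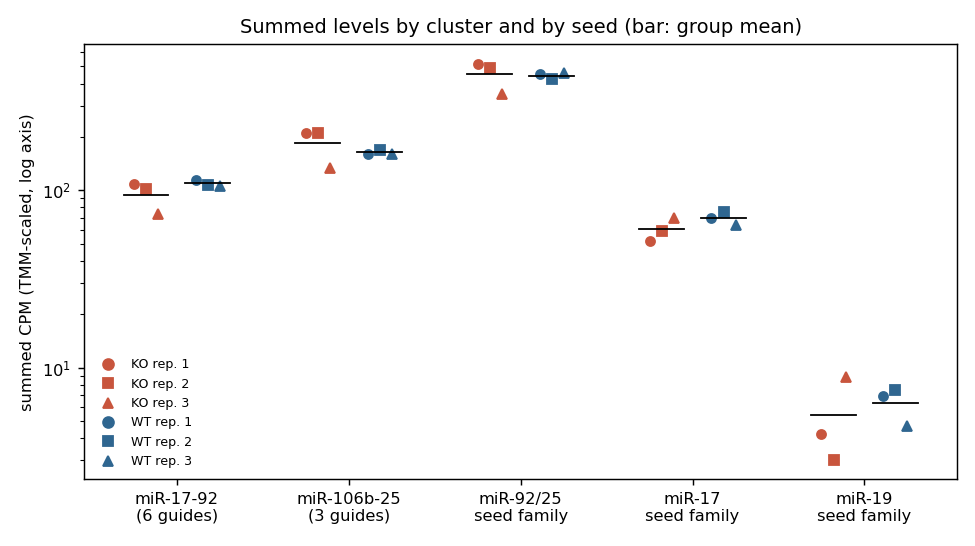
Summed CPM on a log axis of the guides of each cluster and of each seed family with more than 1 member, with KO left and WT right of each label, 1 point per library and a bar at the group mean. KO replicate 3 lies below the other 5 libraries for both clusters and for the miR-92 seed family (labelled miR-92/25), and above them for the miR-19 seed family.

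The relative amounts of members were also compared pair by pair. Of 28 read ratios between the 8 tested members, 2 (7.14%) did not overlap between genotypes, against 13.6% of the ratios of all pairs of tested miRNAs, so the share is not above the background. One of these set miR-25-3p against its seed relative miR-92a-3p, with 1.92, 2.05 and 1.67 reads of miR-25-3p per read of miR-92a-3p in KO and 1.22, 1.43 and 1.31 in WT. The other set miR-19b-3p against miR-106b-5p, with 0.882, 0.507 and 0.656 in KO and 1.12, 0.980 and 1.01 in WT. Both were named after their values were seen and carry no test.

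For 1 hairpin the arm listed as guide was the rarer. The opposite arm, miR-106b-3p, has an unrelated seed (capitals).
mmu-miR-106b-3p: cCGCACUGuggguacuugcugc
It had 63.9, 47.2 and 37.4 CPM in the KO libraries, against 47.3, 45.0 and 44.3 CPM in the WT libraries, above miR-106b-5p in all 6 libraries. Reads of miR-106b-3p per read of miR-106b-5p were 13.8, 8.13 and 2.89 in KO and 7.85, 6.05 and 9.77 in WT. Set KO over WT, the log2 fold change was 0.12 (SE 0.22, adjusted p = 0.882, edgeR). In KO replicate 3 the 3p arm was the lowest and the 5p arm the highest of the 6 libraries, although both come from the same hairpin.

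Arm ratios could be tested for 3 hairpins whose guide has a single locus and whose other arm had at least 10 reads in every library. The log2 ratio of miR-93-5p to miR-93-3p was 4.97, 4.28 and 4.59 in KO and 5.15, 5.51 and 5.25 in WT. All KO values lay below all WT values, a mean difference of -0.69 (p = 0.1 by an exact permutation test, two-sided, and 0.3 after Benjamini-Hochberg adjustment over 3 hairpins). With 3 libraries against 3 this test cannot give a p below 0.1. The rarer arm had as few as 14 reads in a library. For miR-92b-3p over miR-92b-5p the mean difference was -0.30 (exact permutation p = 0.4, adjusted p = 0.6) and for miR-106b-5p over miR-106b-3p it was 0.17 (exact permutation p = 0.9, adjusted p = 0.9). The last was -0.45 without KO replicate 3.

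**Figure D5:**
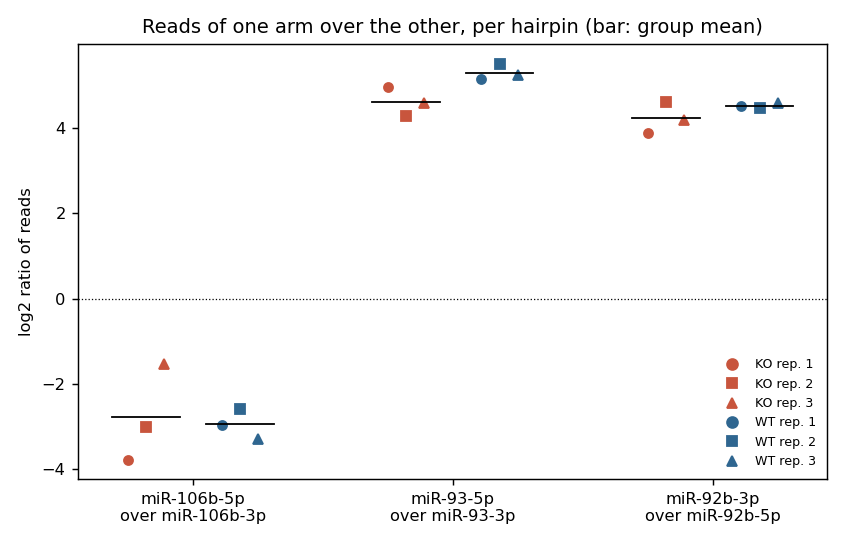
Log2 ratio of the reads of the listed guide arm to those of the opposite arm for 3 hairpins, with KO left and WT right, 1 point per library and a bar at the group mean. Ratios are below 0 for miR-106b in all libraries and above 0 for miR-93 and miR-92b, and KO replicate 3 is the least negative library for miR-106b.

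Most of the other arms were scarce, with miR-106b-3p and miR-92b-5p as exceptions. The table held 9 of the 10 opposite arms looked up. Of these, 5 reached the count filter, with 0 of 5 passing the edgeR test (adjusted p from 0.791 to 0.894). For miR-19b and miR-92a only the arm from the chromosome 14 hairpin was looked up, not that from chromosome X. Levels of miR-92b-5p were 17.1, 9.67 and 12.1 CPM in the KO libraries, against 10.9, 10.3 and 10.7 CPM in the WT libraries. The arms opposite miR-18a, miR-19a, miR-20a and miR-92a had at most 2 reads in any library. Of the third cluster, on the X chromosome, the products that it does not share with miR-17-92 were close to undetected. The paralog of miR-17-5p, miR-106a-5p, had 0, 1 and 1 reads in KO and 0, 0 and 2 in WT, and 3 reads in a library amount to between 0.197 and 0.252 CPM. Those of miR-20b-5p had 2, 2 and 1 reads in KO and 4, 9 and 1 in WT, and those of miR-363-3p, which carries the miR-92 seed, 8, 3 and 5 reads in KO and 7, 6 and 3 in WT. Also with the miR-92 seed, miR-32-5p from an intron of Tmem245 had 1.84, 2.86 and 3.63 CPM in the KO libraries, against 3.54, 2.80 and 2.04 CPM in the WT libraries (KO over WT, log2 fold change -0.02, SE 0.35, adjusted p = 0.994, edgeR).

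The members did not share a common profile over the 6 libraries. As a measure of likeness, log2 CPM was centred on each miRNA's own mean and the root mean square distance between profiles taken. Among the 8 tested members it was smallest between miR-17-5p and miR-93-5p (0.159 log2 units), which share a seed but not a cluster. It was largest between miR-19b-3p and miR-25-3p (0.843), which share neither. The guides miR-106b-5p and miR-25-3p of a single transcript were 0.809 apart. Distances between pairs of other miRNAs were not taken as a background. Counting error adds to the distances of members with few reads, so these values are descriptive. Of all other tested miRNAs, the nearest to the mean profile of the 8 members over 6 libraries were miR-344-3p (0.0604), miR-124b-3p (0.0699) and miR-872-5p (0.0709). That mean profile was nearly flat, between -0.085 and 0.145 log2 units in all libraries. Nearness to it thus marks miRNAs that varied little and not a likeness to single members.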

How the data were processed

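Small RNA was sequenced from total RNA of cortex in 6 libraries, by adaptor ligation, PCR and gel size selection per the labels' protocols. The submitters' processing notes name Bowtie, DESeq2 and mm10. For trimming, miRBase release, mismatches, multi-mapping and strand use, the sources used here give nothing. The authors deposited whole-number read counts per mature miRNA, with no normalization per the file headers and values. They also deposited TPM values, which were not used here, and 0 columns belonged to no sample. Columns were matched to sample titles by their number. Chi-square per degree of freedom was 30.0 to 37.3 between pairs of WT libraries and 354 to 618 between pairs of KO libraries. No library thus looked like a second sequencing of another, but these values cannot tell whether libraries came from separate animals.

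The count test was edgeR 4.0.16 in R 4.3.3 (filterByExpr at a minimum count of 10, TMM, robust quasi-likelihood test, Benjamini-Hochberg over 541 miRNAs, threshold 0.05). Standard errors come from the same fit. Alternatives used DESeq2 1.42.0 and limma 3.58.1. On simulated counts for this comparison, with 534 miRNAs tested and 198 of them changed by 2 log2 units, 97.0% of changed miRNAs were recovered. The members' log2 fold changes ran only from -0.31 to 0.37, and recovery of changes that small was not simulated. Arm ratios used 0.5 added reads. Profiles used log2(CPM + 0.5). Members and lists were chosen with earlier results of these data known. The text covers all members, the opposite arms looked up, the miR-106a-363 paralogs, miRNAs with a member's seed and the 3 nearest profiles. Of the tested opposite arms, miR-17-3p and miR-25-5p are not described singly. Absent from the deposited table were the arm miR-19b-1-5p, the paralog miR-18b-5p, which carries the seed of miR-18a-5p, and the seed relatives miR-367-3p and miR-6383. Sequences and hairpin positions come from RefSeq (GRCm38.p6), with 10 of 10 members matched, and host genes from GENCODE M21 on GRCm38, the assembly of mm10.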

Additional observations from a re-analysis of the deposited data

How the results depend on the processing

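The number of miRNAs called by edgeR stayed at 0 under every alternative scaling, filter and tool tried and ranged from 0 to 18 over left-out libraries, with 18 without KO replicate 3. The count at an unadjusted p under 0.05 ranged from 14 to 97. Of 96 alternative fold changes of members, 5 had the opposite sign and 1 passed the threshold, that of miR-25-3p without KO replicate 3 (0.63). The sign changed for miR-92b-3p with library sizes computed without the 5 most abundant miRNAs (0.0258). Over left-out libraries the log2 fold changes ranged from -0.102 to 0.00747 for miR-92b-3p, from -0.377 to 0.0403 for miR-92a-3p, from -0.184 to 0.660 for miR-106b-5p and from -0.230 to 0.0392 for miR-17-5p, and the sign changed without KO replicate 3 for the first 3 and without WT replicate 2 for miR-17-5p. The arm ratio difference of miR-106b ranged from -0.449 to 0.673. The log2 ratios of summed levels moved in every setting by less than the SD of the log2 sum pooled over both genotypes, in which the wide KO spread counts (for miR-106b-25, an SD of 45.2 CPM in KO and 5.32 CPM in WT), although over left-out libraries they changed sign for the miR-92 seed family (-0.0831 to 0.182) and the miR-19 seed family (-0.808 to 0.0476). The causes were not tested. No paired analysis was possible because the labels give no replicate numbers that groups share. Depth limits miR-18a-5p and miR-19a-3p, at 12 reads or fewer per library.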
